A study of Homo sapiens with 3 samples.

Results

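PIP and MUCL1 encode secreted proteins of apocrine and luminal breast cells, and their signals were followed over 3 cultures of BTSH cells. Members were the features of the array with PIP or MUCL1 as their single annotated gene symbol, which gave 1 feature for each gene, or 2 of the 53617 features and 2 of the 14884 genes with a named feature. They were picked with their signals already known, PIP as a gene of interest of the study and MUCL1 for its spread between cultures. Levels, spreads and orders of both genes are therefore a description and carry no test.

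PIP (prolactin-induced protein, also known as gross cystic disease fluid protein) is a small secreted glycoprotein of apocrine glands and a marker of breast origin in pathology. In breast cancer lines its gene is induced by prolactin, which signals through JAK2 and STAT5, and by androgens. MUCL1, or small breast epithelial mucin, is a secreted, heavily O-glycosylated mucin-like protein of mammary and salivary epithelium. A mucin-like protein carries sugars on its serines and threonines that GALNT enzymes start.

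BTSH is a single clone picked from the HER2+ breast cancer line BT474, seeded at low density, for its high sensitivity to trastuzumab, the antibody against HER2. The 3 samples are untreated BTSH cultures, described as biological replicates, with RNA hybridized to 1 HuGene 2.0 ST array each. All samples belong to this group, so no cell lines were compared, and spread between cultures cannot be told apart from spread between arrays. The arrays correlated with each other at 0.991 to 0.992 (Pearson, over the 53617 features, which do not count as replicates). Over the 4528 genes above background, a set defined below, they correlated at 0.977 to 0.988. Values are log2 signals, on which a step of 1 is a doubling.

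The annotated start sites of PIP and MUCL1 lie on chromosomes 7 and 12. The 250 bases before each start are shown because STAT5, through which prolactin induces PIP, binds a site with a defined sequence. The sequences are RefSeq GRCh38.p14, plus strand, chr7:143131827-143132076 for PIP and chr12:54854266-54854515 for MUCL1. Capitals mark the match to the STAT palindrome.
PIP: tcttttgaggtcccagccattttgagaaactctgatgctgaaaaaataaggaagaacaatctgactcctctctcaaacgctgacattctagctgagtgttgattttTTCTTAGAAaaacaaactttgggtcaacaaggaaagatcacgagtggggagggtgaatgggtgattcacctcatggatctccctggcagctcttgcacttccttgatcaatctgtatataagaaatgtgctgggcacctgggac
MUCL1: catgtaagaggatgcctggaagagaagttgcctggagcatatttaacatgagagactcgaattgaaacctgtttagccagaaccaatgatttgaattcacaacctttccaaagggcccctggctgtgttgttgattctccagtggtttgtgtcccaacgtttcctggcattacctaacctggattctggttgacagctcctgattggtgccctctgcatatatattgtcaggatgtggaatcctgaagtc

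The PIP window held 1 STAT palindrome (TTCNNNGAA, which reads the same on both strands) at bases -144 to -136, counting the base before the start as -1. The MUCL1 window held 0 matches to it, and the forkhead motif (TGTTTAC, or GTAAACA on the other strand) had 0 matches in both windows. Of 27305 windows of this length, 1 for each gene, the STAT palindrome was in 6.78% and the forkhead motif in 2.98%. A match of letters is not a bound site, and the arrays did not measure binding. Both windows were poor in G and C, with 43.6% in PIP and 45.6% in MUCL1, against a median of 58.0% over all windows.

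PIP had signals of 8.93 in replicate 1, 8.41 in replicate 2 and 9.09 in replicate 3, with a mean of 8.81 ± 0.35 (SD, n = 3). Replicate 2 was low, and replicates 1 and 3 lay close together. MUCL1 had signals of 9.90 in replicate 1, 9.87 in replicate 2 and 10.67 in replicate 3, with a mean of 10.15 ± 0.45 (SD, n = 3). Replicate 3 was high here, and replicates 1 and 2 were nearly equal. Each level rests on 1 feature, and since features differ in their probes, the level of MUCL1 was not ranked against that of PIP. The cultures are bulk samples, in which fewer cells with a transcript and less of it per cell cannot be told apart.

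**Figure D1:**
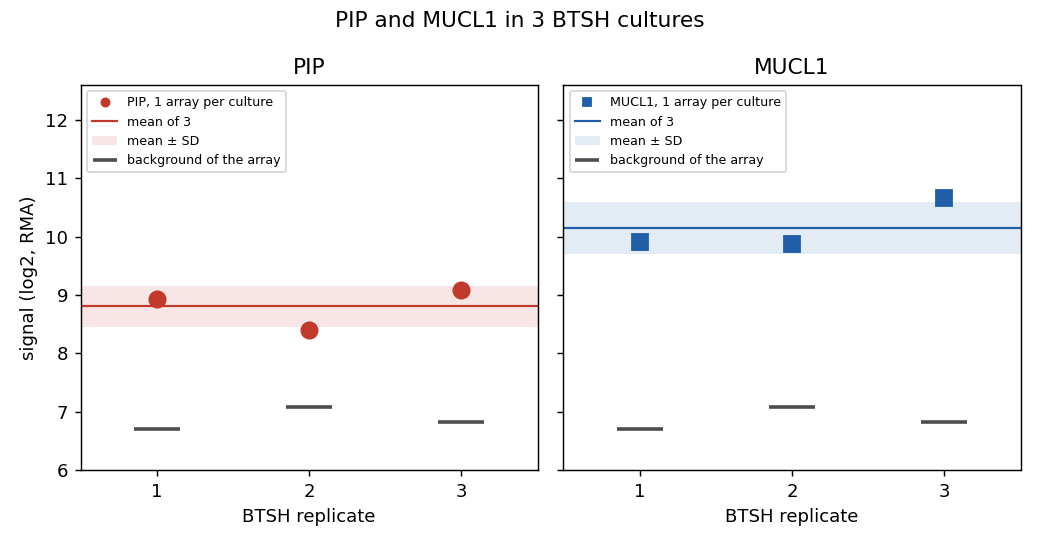
Signal (log2) of PIP (left) and MUCL1 (right) in BTSH replicates 1, 2 and 3, with 1 point per array, the mean as a line, the SD as a band and the background of each array as a short bar. PIP is low in replicate 2 (8.41) and MUCL1 is high in replicate 3 (10.67).

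Both genes were above background in all 3 arrays, background being the 95th percentile of 106 features of gene families not known to be used by breast cells (keratin-associated proteins, late cornified envelope and vomeronasal receptors). By this rule 4528 of the 14884 named genes (30.4%) were above background. PIP was above the background of its array by 2.23 in replicate 1, 1.34 in replicate 2 and 2.26 in replicate 3 on the log2 scale. The smaller distance in replicate 2 combines the lower PIP signal with the highest background of the arrays, 7.08. MUCL1 was above background by 3.20 in replicate 1, 2.80 in replicate 2 and 3.84 in replicate 3.

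The order over the cultures was the same for both genes, replicate 2 lowest and replicate 3 highest. However, replicates 1 and 2 of MUCL1 differed by only 0.027, and with arrays centred on housekeeping genes that difference turned to -0.092, which ends the shared order. Of the 4528 genes above background, 11.2% had the order of PIP and MUCL1, 27.4% were highest in replicate 3 and 25.9% were lowest in replicate 2. More of these genes, 48.1%, were highest in replicate 1 and 47.3% were lowest in replicate 3. A further 26.8% were lowest in replicate 1 and 24.4% highest in replicate 2. As the order was part of why the genes were picked, nothing is read from these shares.

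The culture that stood apart was not the same for both genes. In replicate 3 relative to replicate 2, PIP was higher by 0.68 on the log2 scale (1.60-fold) and MUCL1 by 0.79 (1.73-fold). In replicate 3 relative to replicate 1, MUCL1 was higher by 0.77 (1.70-fold), whereas PIP was higher by only 0.16 (1.12-fold). Among the 1292 other genes above background within 0.5 of the mean of PIP, 675 differed at least as much between replicates 3 and 1. In replicate 1 relative to replicate 2, PIP was higher by 0.52 (1.43-fold), a difference that 8 of these 1292 genes reached. Between the same cultures, 405 of the 476 genes within 0.5 of the mean of MUCL1 differed at least as much as MUCL1 did. Without replicate 2 the highest and lowest signals of PIP were 0.16 apart, and without replicate 3 those of MUCL1 were 0.027 apart, so 1 culture sets the spread of each gene.

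**Figure D2:**
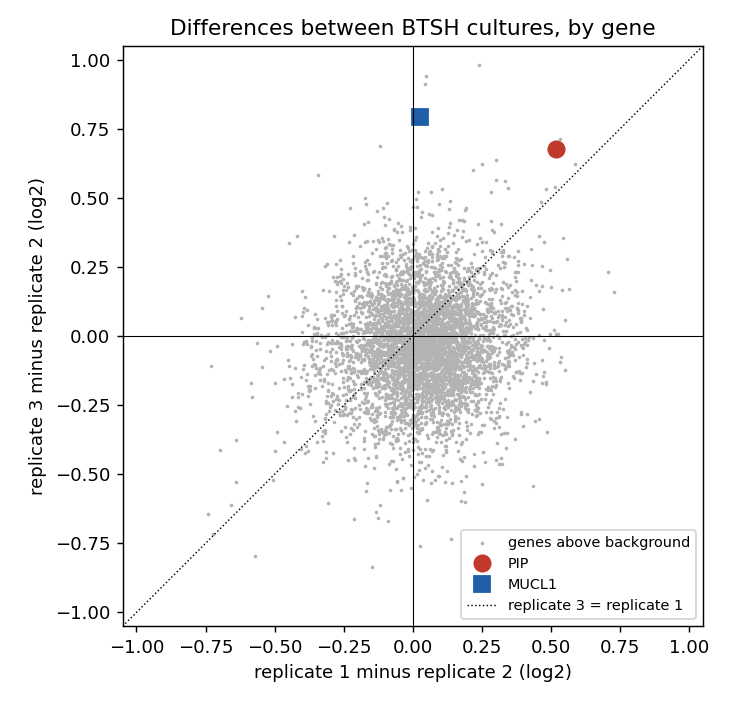
Difference of replicate 3 from replicate 2 (vertical axis, log2) against that of replicate 1 from replicate 2 (horizontal axis, log2) for PIP, MUCL1 and the other genes above background (grey points, 1 per gene). MUCL1 lies near 0 on the horizontal axis (0.027, turned to -0.092 with arrays centred on housekeeping genes) and PIP near the line on which replicates 1 and 3 are equal.

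Both genes varied more between cultures than most genes of like signal. For PIP, the SD of 0.35 was reached by 9 of the 1292 genes within 0.5 of its mean (0.697%), whose median SD was 0.11. For MUCL1, the SD of 0.45 was reached by 0 of 476 such genes, whose median SD was 0.092. Over all other genes above background, 42 of 4527 had at least the SD of PIP and 6 had at least that of MUCL1. MUCL1 was picked for its SD, so its place in this ranking is a description. Without replicate 2, 50.1% of the genes of like signal had at least the SD of PIP, and without replicate 3, 85.2% had at least that of MUCL1.

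**Figure D3:**
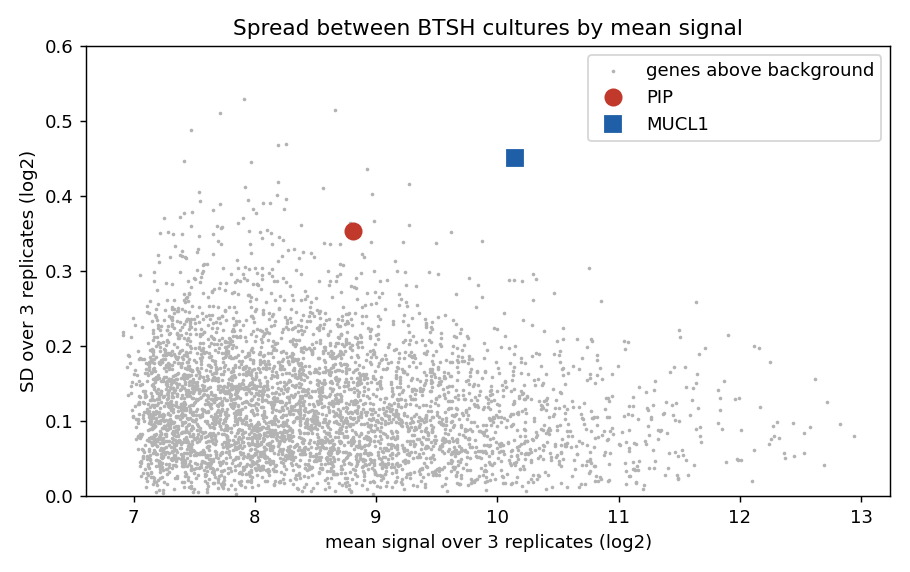
SD over the 3 BTSH replicates (log2) against the mean signal (log2) of each gene above background, with PIP and MUCL1 marked. Few genes with a mean near that of PIP (8.81) and none within 0.5 of that of MUCL1 (10.15) have a larger SD than these genes.

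The profile most like that of PIP, by the root mean square difference of signals centred on their mean over the 3 arrays, was that of STOM, which encodes the membrane protein stomatin (difference 0.015). STOM had signals of 8.02 in replicate 1, 7.49 in replicate 2 and 8.20 in replicate 3. It was followed by PSTPIP2 (0.051), an adaptor protein of the actin cytoskeleton, PNMT (0.061), the enzyme that makes adrenaline and whose gene lies close to ERBB2, the sphingosine-1-phosphate transporter gene SPNS2 (0.064) and the small Cajal body RNA gene SCARNA4 (0.076). All 5 had replicate 2 lowest and replicate 3 highest. MUCL1 ranked 1052 of 4527 genes by likeness to PIP (0.26).

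The profile most like that of MUCL1 was that of RNF19B, which encodes a ubiquitin ligase (difference 0.052), with signals of 8.38 in replicate 1, 8.34 in replicate 2 and 9.25 in replicate 3. Next came TERC (0.062), the RNA component of telomerase, the microRNA gene MIR4481 (0.065), SERF2 (0.095) and the inositol trisphosphate kinase gene ITPKC (0.12). All 5 were highest in replicate 3, and TERC and ITPKC were lowest in replicate 1 instead of replicate 2. PIP ranked 290 of 4527 genes by likeness to MUCL1. Each likeness was measured over 3 arrays only, and nothing on shared function or control is read from it.

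Of the apocrine markers, 14 of 24 had a named feature and 7 of these were above background (50.0%, beside 30.4% of all named genes), with the luminal and apocrine factors FOXA1, SPDEF and XBP1 among them. CLCA2, a chloride channel regulator, came closest to MUCL1, with signals of 9.03 in replicate 1, 9.03 in replicate 2 and 9.50 in replicate 3. It ranked 15 of 4527 genes by likeness to MUCL1. Like MUCL1, CLCA2 was nearly equal in replicates 1 and 2 and highest in replicate 3, by 0.47 relative to replicate 2. SPDEF (11.33 ± 0.08, SD, n = 3) and MLPH (8.55 ± 0.07), which encodes melanophilin, had much narrower spreads, and ALCAM, an adhesion molecule, was highest in replicate 1 (7.99) and lowest in replicate 3 (7.66). The apocrine markers APOD, HPGD, KYNU, TFAP2B and SERHL2 were above background in 0 arrays, whereas DHRS2 and AGR2 were above it in 2 arrays. DHRS2 (7.05) and AGR2 (6.97) fell short only in replicate 2, whose background of 7.08 was the highest. The secretoglobin gene SCGB2A2 is among the 10 markers without a named feature here. With the 90th percentile as background, 11 of the 14 named apocrine markers were above it, as were 7523 of the 14884 named genes, so how many of these markers pass depends on the percentile.

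Of the prolactin pathway, 3 of 10 named genes were above background, a share like that of all named genes. PRLR, the prolactin receptor, had signals of 11.06 in replicate 1, 10.90 in replicate 2 and 10.80 in replicate 3. It was highest where neither PIP nor MUCL1 was. The transcription factor ELF5 (9.12 ± 0.15, SD, n = 3) and CISH (7.30 ± 0.14), a target and inhibitor of STAT5 signalling, were highest in replicate 2, in which PIP was lowest. PRL itself had a signal of 2.76 ± 0.05 and was above background in 0 arrays, as were JAK2, STAT5A (4.85 ± 0.24) and STAT5B (6.23 ± 0.14), which are named after their values were seen. A call of not above background does not show that a transcript is missing from the cells.

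Of the androgen pathway, 1 of 7 named genes was above background (14.3%, beside 30.4% of all named genes). This was the nuclear receptor coactivator gene NCOA2 (8.53 ± 0.10, SD, n = 3). KLK2 and KLK3, which androgens induce in prostate cells, were above background in 0 arrays. Of the interleukin 4 and 13 pathway, which also induces PIP, 2 of 6 named genes were above background (33.3%, beside the same 30.4%). These were the kinase genes JAK1 (9.52 ± 0.04) and TYK2 (7.42 ± 0.12). A further 3 genes of this list, IL13RA1, IL2RG and STAT6, have no named feature here. The receptor gene IL4R was above background in 2 arrays, with 7.13 in replicate 1, 6.89 in replicate 2 and 7.12 in replicate 3. It fell short only in replicate 2, whose background of 7.08 was the highest. The ligands IL4 and IL13 were above background in 0 arrays.

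Among 15 named genes of milk and glandular secretion, 1 was above background (6.67%, beside 30.4% of all named genes). This was LTF, which encodes lactoferrin, with signals of 8.03 in replicate 1, 8.36 in replicate 2 and 8.52 in replicate 3, highest in the same culture as PIP and MUCL1. The casein genes CSN1S1, CSN2 and CSN3 were above background in 0 arrays. For mucin O-glycosylation, 6 of 9 named genes were above background (66.7%, beside the same 30.4%), all of them GALNT genes. GALNT12 had 8.34 in replicate 1, 7.86 in replicate 2 and 7.69 in replicate 3. GALNT7 and GALNT10 were also highest in replicate 1. GALNT6 was highest in replicate 3, with 8.83 there, 8.60 in replicate 1 and 8.63 in replicate 2. None of the 16 listed mucin genes has a named feature here. Of the proteins known to bind PIP, those of FN1 (fibronectin, 4.65 ± 0.15, SD, n = 3) and CD4 (4.29 to 4.60 over the 3 arrays) have named genes, which were above background in 0 arrays.

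Of the luminal identity genes, 9 of 10 named ones were above background, beside 30.4% of all named genes. The keratin gene KRT8 was above it in 0 arrays, with 6.38 in replicate 1, 6.00 in replicate 2 and 6.44 in replicate 3. Over these 9, the median deviation from the mean over arrays was -0.06 in replicate 1, -0.02 in replicate 2 and 0.01 in replicate 3. PIP deviated by 0.12, -0.40 and 0.28 in the same arrays and MUCL1 by -0.25, -0.27 and 0.52. GATA3, a luminal transcription factor, had the largest SD of this list and was highest in replicate 2, with 9.43 there, 8.69 in replicate 1 and 8.78 in replicate 3. KRT18, a keratin of luminal cells, had 10.49 in replicate 1, 10.59 in replicate 2 and 10.89 in replicate 3. It was highest in the same culture as PIP and MUCL1 and ranked 72 of 4527 genes by likeness to MUCL1. GRB7, an adaptor protein whose gene lies beside ERBB2, had 10.59 in replicate 1, 10.82 in replicate 2 and 10.89 in replicate 3. PGR, the progesterone receptor, was lowest in replicate 2, as PIP was, with 9.20 there, 9.40 in replicate 1 and 9.31 in replicate 3. Of the 9 luminal genes above background, 4 were highest in replicate 3, 3 in replicate 1 and 2 in replicate 2. Over the lists of apocrine, luminal, prolactin, androgen, interleukin, secretion and O-glycosylation genes, 28 genes were above background. Of them, 0 had the order of PIP and MUCL1, beside 11.2% of all genes above background. List genes that fell short in any array are left out of this count. Among those, DHRS2 (short only in replicate 2) had that order. So did KRT8, SERHL2, PRL, JAK2, SOCS3, IL4, CSN2, XDH, CEL and SLPI, each short in all 3 arrays. Of these 28 genes, 11 were highest in replicate 3, beside 27.4% of all genes above background, and 3 were lowest in replicate 2, beside 25.9%.

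**Figure D4:**
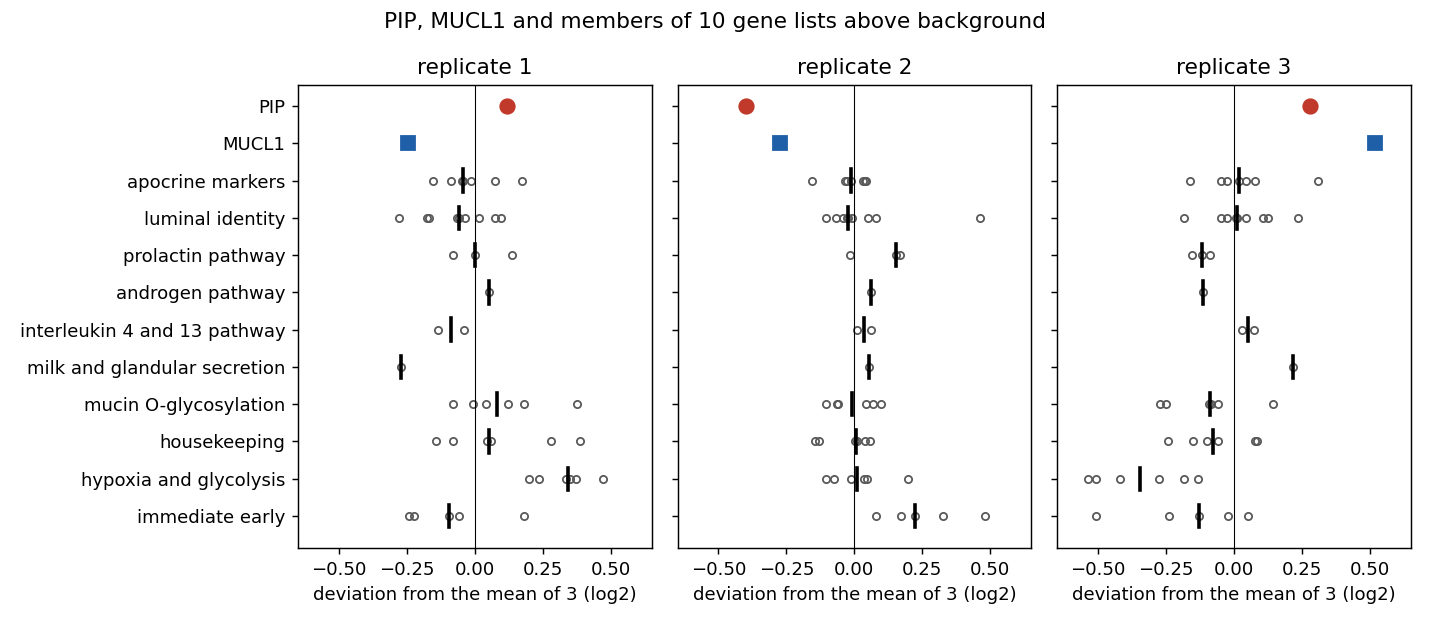
Deviation from the mean over the 3 BTSH replicates (log2) in replicates 1, 2 and 3 for PIP, MUCL1 and the members above background of 10 gene lists (open circles, with the list median as a bar). PIP lies at -0.40 in replicate 2 and MUCL1 at 0.52 in replicate 3, outside the deviations of the apocrine markers in those arrays.

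Other gene groups also differed between the cultures, in other patterns. The median deviation of the hypoxia and glycolysis genes above background was 0.34 in replicate 1, 0.01 in replicate 2 and -0.35 in replicate 3. That of the immediate early genes was -0.10 in replicate 1, 0.22 in replicate 2 and -0.13 in replicate 3. For the housekeeping genes the median deviation was smaller, with 0.05 in replicate 1, 0.01 in replicate 2 and -0.08 in replicate 3. Replicate 2, in which PIP was low, was thus the culture with high immediate early genes, and replicate 3, in which MUCL1 was high, the one with low hypoxia genes. The part of either in the values of PIP and MUCL1 was not tested. Of 8 named markers of fibroblasts, immune, endothelial and fat cells, 0 were above background in all 3 arrays. The macrophage marker CD68 was above it in 2, with 7.70 in replicate 1, 7.03 in replicate 2 and 7.01 in replicate 3. CD68 fell short only in replicate 2, whose background of 7.08 was the highest. With the 90th percentile as background, 1 immune and 1 fat cell marker were above it in all 3 arrays.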

How the data were processed

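RNA of 3 untreated BTSH cultures was hybridized to 1 array each. Per the labels, the deposited table holds log2 signals for 53617 features, which the authors computed by RMA (Affymetrix Expression Console 1.4). Transcriptome Analysis Console 4.0 also stands in the submitters' notes, and the build of the features was not stated there. Arrays of other lines were not analysed here. The array annotation named 16098 features, each with 1 symbol, for 14884 genes, and symbols were updated through RefSeq GRCh38.p14. The feature with the highest mean stood for a gene. No test was run, because the 3 arrays form 1 group, and their number limits the precision of every value.

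The members and gene lists were chosen with earlier results of these data known. The genes named are PIP and MUCL1, the 5 genes with the nearest profile to each, all members of a list above background where these are at most 5 and otherwise the 4 with the largest SD, and ligands, receptors or defining markers not above background. Other names and the genes next to PIP and MUCL1 were added after their values were seen, and housekeeping, hypoxia and immediate early genes are given by medians. The alternatives were other scalings, the mean of features, other percentiles or rules of background, no filter, and leaving out each replicate. Steps were tested on simulated data. Scripts ran in Python 3.11.15 with pandas 2.3.3 and numpy 2.4.6, and figures were drawn in matplotlib 3.10.9. Some planned results are not reported here.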

Additional observations from a re-analysis of the deposited data

How the results depend on the processing

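With arrays centred on the mean of 6 housekeeping genes, the difference of replicate 1 from replicate 2 in MUCL1 turned to -0.092, and the culture orders shared by PIP and MUCL1 were then 0. Among these 6, PGK1 (9.35 in replicate 1, 8.81 in replicate 2) and HPRT1 (7.93 and 7.52) differed most between these cultures. TBP and B2M were nearly equal in them, and GAPDH and PPIA were higher in replicate 2. Quantile normalization and median centring kept the shared order. The mean of features could not change it, since each of the genes has 1 feature. Leaving out 1 replicate gave 0.16 to 0.68 between the highest and lowest signal of PIP, 0.027 to 0.79 for MUCL1, and mean signals of 8.67 to 9.01 (PIP) and 9.89 to 10.28 (MUCL1). Both genes were above background with the 99th percentile, the only rule tried that was stricter than the reported one. They were also above it with the 90th percentile, with means over the arrays and without each replicate. These rules are looser than the reported one, so a gene above background in every array could not fail them. With the 90th percentile 7523 genes were above background. The count above background then rose by over 1.5 times in 7 lists, among them the apocrine markers (11 of 14), and with the 99th percentile it fell by as much in 3 lists. With quantile normalization, 4 of the 5 genes nearest to PIP and 4 of the 5 nearest to MUCL1 were the same. No paired analysis was possible because all BTSH cultures belong to 1 group.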

Other observations

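MUCL1 lies in a run of genes for small secreted proteins on chromosome 12. Among protein-coding genes with a named feature, the next ones on one side in RefSeq order are DCD, which encodes the sweat gland peptide dermcidin, with a signal of 3.13 ± 0.08 (SD, n = 3), and LACRT, which encodes the tear protein lacritin, with 4.10 ± 0.07. Both were above background in 0 of the 3 BTSH arrays, in which MUCL1 had 9.87 to 10.67. On the other side, NEUROD4 and TMT1B were above it in 0 arrays and CD63, a tetraspanin, in 3. Of the 6 nearest genes of this kind, 3 on each side, 1 was above background for MUCL1 and 2 were for PIP, beside 30.4% of all named genes. Those of PIP were GSTK1 (7.83 ± 0.18), a glutathione transferase, and ZYX (7.58 ± 0.15), which encodes zyxin. EPHB6, next to PIP on the other side, was above background in 0 arrays with 6.20 ± 0.11. GSTK1 was highest in replicate 3, like PIP, with 8.04 there, 7.69 in replicate 1 and 7.77 in replicate 2, but was lowest in replicate 1.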
